A study of Homo sapiens with 10 samples.

Results

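The thioredoxins TXN and TXN2, the mitochondrial thioredoxin reductase TXNRD2, the thioredoxin-binding protein TXNIP and the peroxiredoxins PRDX1 to PRDX6 were followed in 2 human leukaemia cell lines treated with JOA. These 10 genes were taken by symbol, because TXNIP was lower with JOA in Kasumi-1. All 10 had values in NB4, where transcripts were summed to genes, and 4 (TXN, TXNIP, PRDX1 and PRDX5) in Kasumi-1. The other 6 were not analysed here in Kasumi-1. Symbols could be matched for 21961 genes in NB4 and 10802 in Kasumi-1, where they cover 37.5% of the rows, and 9348 symbols were matched in both. RNA was sequenced after 48 hours with 1 µM JOA or with a control treatment that the labels do not describe further. Kasumi-1, a myeloid leukaemia line that carries the RUNX1-RUNX1T1 fusion, gave 3 JOA and 3 control libraries. NB4, an acute promyelocytic leukaemia line that carries PML-RARA, gave 2 JOA and 2 control libraries. One label of the treated NB4 libraries names I13 in place of JOA, while the others name JOA. Each line stands for 1 cell line, and nothing states that libraries of a group came from separate cultures, and a p-value here reflects only how far these libraries spread, which may be technical.

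Thioredoxins are small proteins that pass electrons from NADPH, by way of a thioredoxin reductase, to oxidised protein thiols. Most peroxiredoxins take these electrons to reduce hydrogen peroxide and other peroxides, each form working in its own compartment. TXNIP binds reduced thioredoxin and limits its activity. It is also an arrestin-like protein that restrains glucose uptake, and its gene is transcribed in response to glucose through MLXIP (MondoA) and MLX.

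The promoter of TXNIP is shown because its pair of carbohydrate response boxes is the element through which glucose acts on the gene, and that of PRDX5 because PRDX5 was the other gene whose JOA libraries all lay below the controls in Kasumi-1. Both are RefSeq sequences on GRCh38.p14 and cover the 250 bases before the start of transcription, at chr1:145996580-145996829 on the minus strand for TXNIP and chr11:64317871-64318120 on the plus strand for PRDX5. Capitals mark the paired CACGAG boxes and CCAAT boxes read on either strand.
TXNIP: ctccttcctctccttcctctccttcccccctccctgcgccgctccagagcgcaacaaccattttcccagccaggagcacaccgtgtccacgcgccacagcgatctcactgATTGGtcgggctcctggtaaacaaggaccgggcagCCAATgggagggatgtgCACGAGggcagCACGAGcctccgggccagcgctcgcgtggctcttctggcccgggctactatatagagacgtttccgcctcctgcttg
PRDX5: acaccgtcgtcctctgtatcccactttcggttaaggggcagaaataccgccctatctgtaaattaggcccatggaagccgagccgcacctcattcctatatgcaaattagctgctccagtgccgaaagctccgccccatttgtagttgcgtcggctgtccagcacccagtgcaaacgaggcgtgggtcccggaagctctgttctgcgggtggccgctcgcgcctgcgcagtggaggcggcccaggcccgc
The paired box was searched as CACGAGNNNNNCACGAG on both strands of 35116 RefSeq windows of 300 bases, which run from 250 bases before to 50 bases after a start. It matched in 2 windows (0.00570%), those of TXNIP and KCTD5. In TXNIP it lay 88 to 72 bases before the start. The same window held 2 CCAAT boxes, 140 to 136 bases before the start on the minus strand and 105 to 101 bases before it on the plus strand. Of the 10 genes, 7 had a window, while TXN2, PRDX1 and PRDX6 had none. TXNIP and PRDX5 had 2 windows each and TXNRD2 had 3. Matches per gene were read only in the window nearest the GENCODE start of the gene. CCAAT was present in 34.6% of all windows and in none of those read for the other 6 genes of the set with a window. The letters CACGTG, present in 7.26% of windows, matched once each in PRDX3 and PRDX4. The letters TGACNNNGC, the core of an antioxidant element, matched in 13.3% of windows and in 0 of the 7 windows read for the set. The motifs do not overlap in these windows, and a match is a description of letters only.

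In Kasumi-1 the deposited FPKM values summed to 265824 to 270301 in the JOA libraries and 266344 to 277629 in the control libraries. Their relative depths were 91.4 to 100%, and an estimate from transcript lengths put 1390 to 3690 reads behind each value of the 4 genes, a counting error of 1.65 to 2.68% (SD). In NB4 the values are TPM, which keep no depth. RUNX1T1 averaged 18.6 ± 1.55 FPKM in Kasumi-1 with JOA and 18.8 ± 0.822 FPKM in its controls (SD, n = 3 each), and was at most 0.0159 TPM in any NB4 library. In NB4 with JOA the granule genes PRTN3 and MPO were lower than in controls, at 41.5 ± 0.613 against 199 ± 81.9 TPM and at 5282 ± 853 against 7838 ± 205 TPM (SD, n = 2 each). Neither was called in the unpaired fit (limma adjusted p = 0.0948 and 0.277). Of the other markers listed for NB4, ELANE was lower, at 0.244 against 1.29 TPM. RARA and PML had higher means, at 54.5 ± 0.0271 against 47.3 ± 2.91 TPM and at 55.0 ± 3.98 against 50.5 ± 3.17 TPM (SD, n = 2 each). The groups overlapped for PML, and neither gene was called (limma adjusted p = 0.560 for RARA and 0.731 for PML). Summed epithelial and fibroblast markers, 3 of 4 of which reached 1 TPM, were 53.1 to 54.8 TPM in NB4 with JOA and 38.2 to 39.2 TPM in controls. Summed T cell markers, 1 of 3 of which reached 1 TPM, were 32.1 to 47.8 TPM with JOA and 26.4 to 27.8 TPM in controls, while 0 of 3 erythroid markers reached 1 TPM. The part of these markers in the results below was not tested. In bulk RNA, fewer cells of a type and less RNA per cell cannot be told apart. Since each table has its own normalisation, no level is compared across the lines.

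TXNIP lies on chromosome 1 (GRCh38, 145992435 to 145996600, minus strand). In Kasumi-1, TXNIP was at 46.3, 43.1 and 28.6 FPKM in the JOA libraries and at 69.7, 51.7 and 47.6 FPKM in the control libraries. All 3 JOA libraries lay below all 3 control libraries, although JOA 1 and control 3 differed little. The means were 39.3 ± 9.47 FPKM with JOA and 56.3 ± 11.7 FPKM in controls (SD, n = 3 each), so the JOA mean was 69.8% of the control mean. On the log2(FPKM + 1) scale the difference was -0.52 (SE 0.21). Within libraries of the same number, JOA was at 66.5%, 83.3% and 59.9% of its control. Without JOA 3 the log2 difference was -0.31, and without control 1 it was -0.36. Because TXNIP was chosen for this difference, these values are a description and no p-value is taken as a test of it.

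In NB4, TXNIP was at 134.7 and 132.8 TPM in the JOA libraries and at 126.7 and 100.9 TPM in the control libraries. Both JOA libraries lay above both control libraries, with 1 control close to them. The means were 134 ± 1.39 TPM with JOA and 114 ± 18.2 TPM in controls (SD, n = 2 each). The difference was 0.24 on the log2(TPM + 1) scale (SE 0.13, 95% interval -0.055 to 0.54) and did not pass the threshold of an adjusted p of 0.05 (limma, Benjamini-Hochberg adjusted p = 0.541). Without control 2 it was 0.078 and without control 1 it was 0.40, so the size rests on which control is used. The size also varied with scaling, at 0.14 (SE 0.12) under median-ratio scaling and 0.20 (SE 0.13) under quantile normalisation.

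**Figure D1:**
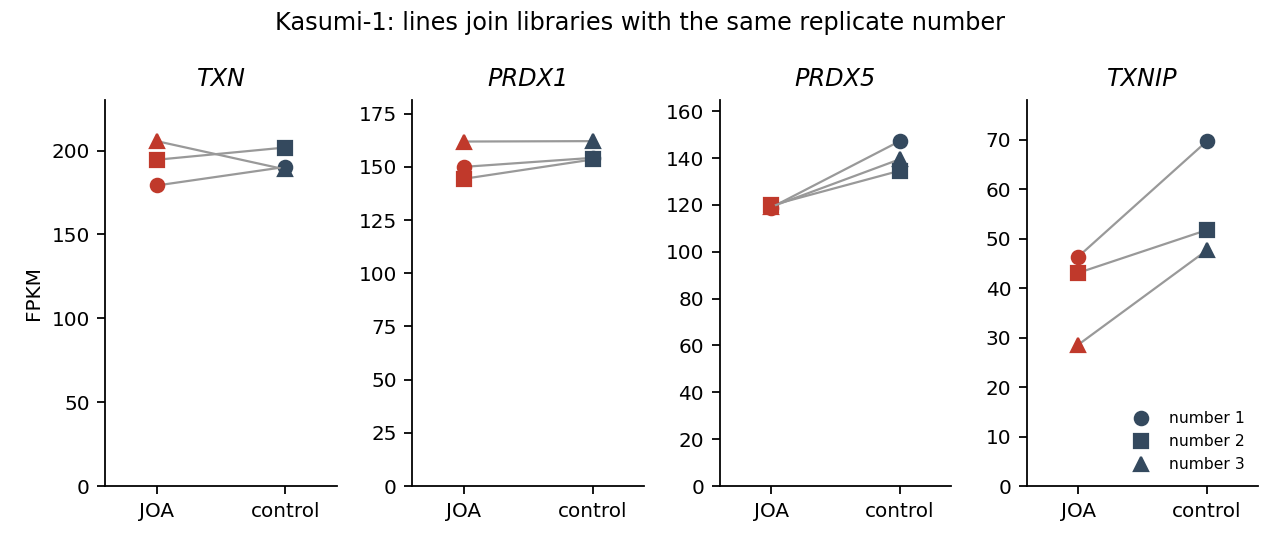
Levels of the 4 genes in Kasumi-1 in FPKM, with JOA on the left and control on the right of each panel; each point is 1 library and lines join libraries of the same number. TXNIP, PRDX5 and, by a small margin, PRDX1 are lower with JOA in every pair, and the groups overlap for TXN and PRDX1 but not for TXNIP and PRDX5.

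TXN, the cytosolic thioredoxin (chromosome 9, 110243811 to 110256640, minus strand), was at 179, 195 and 206 FPKM in Kasumi-1 with JOA and at 190.2, 202 and 189 FPKM in controls. The groups overlapped, with means of 193 ± 13.3 and 194 ± 7.16 FPKM (SD, n = 3 each). In NB4, TXN was at 304 and 311 TPM with JOA and at 299.5 and 326 TPM in controls (log2 difference -0.023, SE 0.097, limma adjusted p = 0.954). TXNIP stood at 25.9, 22.1 and 13.9 per 100 of TXN in the Kasumi-1 JOA libraries, against 36.6, 25.6 and 25.2 in controls. In NB4 the same ratio was 44.3 and 42.7 with JOA, against 42.3 and 31.0 in controls. The ratio thus followed TXNIP in each line, since TXN itself differed little between the groups.

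TXN2, the mitochondrial thioredoxin (chromosome 22, 36467036 to 36482030, minus strand), was at 71.8 and 69.7 TPM in NB4 with JOA and at 68.9 and 70.3 TPM in controls. TXNRD2, the selenoprotein that reduces TXN2 (chromosome 22, 19875517 to 19941992, minus strand), was at 30.5 and 31.0 TPM with JOA and at 29.5 and 30.8 TPM in controls. The groups overlapped for both genes, with log2 differences of 0.023 (SE 0.10, limma adjusted p = 0.956) for TXN2 and 0.030 (SE 0.12, limma adjusted p = 0.949) for TXNRD2. The sign of both turned under median-ratio scaling and under quantile normalisation.

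PRDX5 reduces peroxides in mitochondria, peroxisomes and cytosol (chromosome 11, 64318088 to 64321811, plus strand). In Kasumi-1, PRDX5 was at 119, 120 and 119 FPKM in the JOA libraries and at 147, 135 and 139 FPKM in the control libraries. The JOA values lay within 1 FPKM of each other and below every control. Their estimated counting error of 2.35 to 2.38% (SD) was larger than that spread, so no meaning is given to their closeness. The means were 119 ± 0.481 FPKM with JOA and 140.4 ± 6.37 FPKM in controls (SD, n = 3 each), or 84.9% of control, with a log2 difference of -0.23 (SE 0.054). In NB4, PRDX5 was at 208 and 176 TPM with JOA and at 219.9 and 235 TPM in controls, so that 208 TPM, the higher JOA value, was still under the lower control. The JOA mean was 84.3% of the control mean, and the log2 difference of -0.25 (SE 0.11, 95% interval -0.52 to 0.017) did not pass the threshold (limma adjusted p = 0.491). Without JOA 2 it was -0.13 and without JOA 1 it was -0.37.

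PRDX1 and PRDX2 work in the cytosol. PRDX1 (chromosome 1, 45511036 to 45523047, minus strand) was at 150.0, 144 and 162 FPKM in Kasumi-1 with JOA and at 154, 153 and 162 FPKM in controls. In NB4 it was at 316 and 306 TPM with JOA and at 312 and 399 TPM in controls, a log2 difference of -0.18 (SE 0.13, limma adjusted p = 0.641). The groups overlapped in both lines, and in NB4 control 2 lay well above the other 3 libraries. The NB4 difference was -0.0046 without control 2 and -0.36 without control 1. PRDX2 (chromosome 19, 12796820 to 12801859, minus strand) was at 195 and 177 TPM in NB4 with JOA and at 188 and 190 TPM in controls (log2 difference -0.021, SE 0.099, limma adjusted p = 0.958).

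PRDX3, the mitochondrial form that takes electrons from TXN2 (chromosome 10, 119167703 to 119178833, minus strand), was at 229 and 241 TPM with JOA and at 234 and 248 TPM in controls. PRDX4, the form of the endoplasmic reticulum (chromosome X, 23664262 to 23686399, plus strand), was at 136 and 129 TPM with JOA and at 139.5 and 166 TPM in controls. PRDX6, which takes electrons from glutathione and also has phospholipase activity (chromosome 1, 173477266 to 173488807, plus strand), was at 188 and 192 TPM with JOA and at 199 and 198 TPM in controls. The JOA libraries of PRDX4 and PRDX6 lay below their controls, while those of PRDX3 overlapped. The log2 differences were -0.20 (SE 0.12, limma adjusted p = 0.580) for PRDX4, -0.067 (SE 0.093, limma adjusted p = 0.814) for PRDX6 and -0.038 (SE 0.096, limma adjusted p = 0.910) for PRDX3. That of PRDX4 was -0.071 without control 2 and -0.32 without control 1. Summed over the 6 peroxiredoxins, NB4 held 1272 and 1220 TPM with JOA and 1292 and 1437 TPM in controls.

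**Figure D2:**
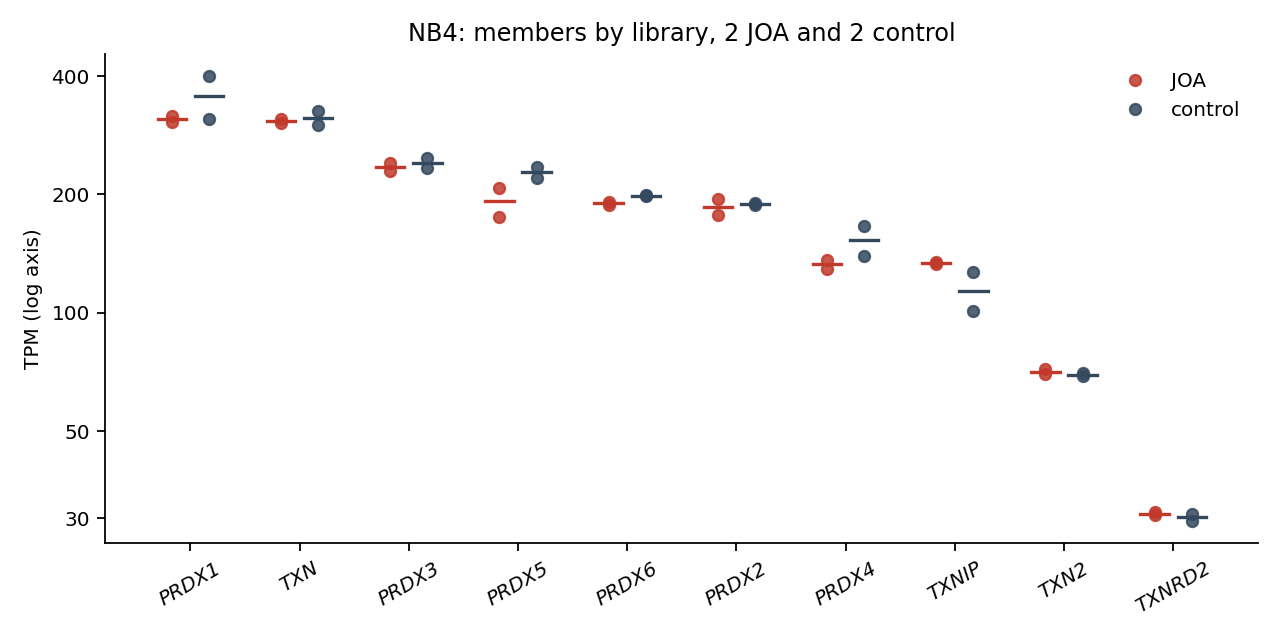
Levels of the 10 genes in NB4 in TPM on a log axis, with JOA left of control for each gene; points are libraries and lines are means. The JOA points lie above the controls for TXNIP, below them for PRDX4, PRDX5 and PRDX6, and overlap for the other 6 genes.

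Over the set, the unpaired limma fit called 0 of 4 genes in Kasumi-1, where 0% of 12101 tested genes passed, and 0 of 10 in NB4, where 0.00773% of 12941 tested genes passed. With no adjustment, 0 of the 10 had a p under 0.05 in NB4, beside 10.6% of all tested genes. Pairing by number in NB4 gave 0 of 10 calls, beside 1.13%. The Kasumi-1 contrast chose the set, so counts and medians of its genes there are a description and no test of them. There, 2 of 4 (TXNIP and PRDX5) lay under an unadjusted p of 0.05, beside 16.4% of all tested genes. With libraries paired by number, the same 2 of 4 lay under the adjusted threshold, beside 8.14% (2.06% lower). TXNIP was taken for its fall in Kasumi-1, so it is in each such 2 of 4 by choice. In Kasumi-1, 2 of 4 genes had all JOA libraries below all controls, beside 7.10% of tested genes, and 0 of 4 above, beside 16.0%. In NB4, 3 of 10 had them below, beside 11.0% of tested genes, and 1 of 10 above, beside 32.5%. The log2 difference was below 0 for 7 of the 10 genes in NB4, with a median of -0.030 over the set and 0.085 over all tested genes, of which 66.2% lay above 0. Median-ratio scaling and quantile normalisation each put 9 of the 10 below 0, TXNIP being the exception, and medians over all tested genes near 0. In Kasumi-1 the median was -0.14 over the 4 genes and 0.047 over all tested genes, with 4 of 4 below 0. It was -0.21 under median-ratio scaling, and -0.069 with 2 of 4 below 0 under quantile normalisation.

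**Figure D3:**
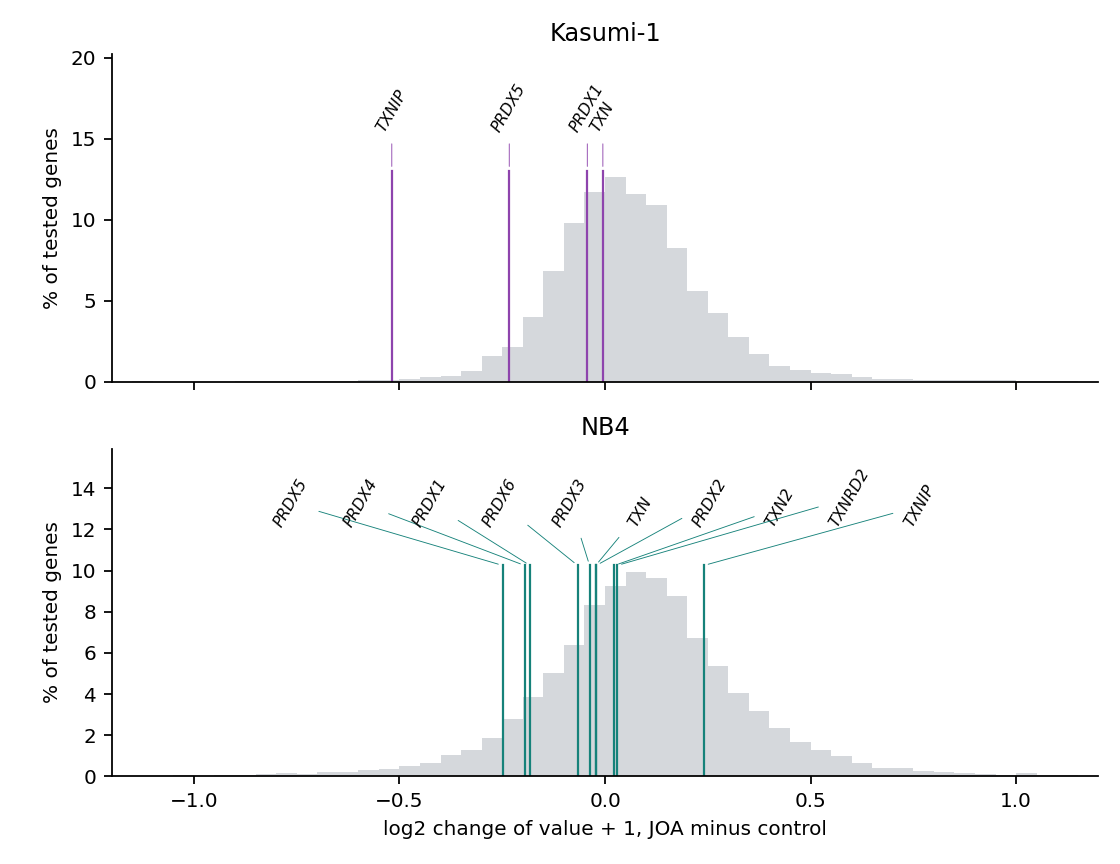
Distribution of the log2 difference, JOA minus control, over all tested genes in each line (grey bars, % of genes per bin), with the genes of the set as coloured lines. TXNIP lies at -0.52 in the lower tail in Kasumi-1 and at 0.24 in the upper part in NB4, while PRDX5 lies at -0.23 and -0.25.

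The lines were set against each other as the Kasumi-1 difference minus the NB4 difference, in 1 limma fit over all 10 libraries and 7261 genes, of which 0.193% were called. None of the 4 genes was called, and 0 of the 3 other than TXNIP had an unadjusted p under 0.05, beside 11.7% of all. PRDX5 gave 0.016 (SE 0.11, 95% interval -0.23 to 0.26, adjusted p = 0.972), PRDX1 gave 0.14 (SE 0.14, interval -0.16 to 0.44, adjusted p = 0.720) and TXN gave 0.017 (SE 0.11, interval -0.22 to 0.25, adjusted p = 0.970). These intervals do not show that the lines act alike. TXNIP gave -0.76 (SE 0.28), with the JOA libraries below the controls in Kasumi-1 and above them in NB4. No p-value is given for it because TXNIP was chosen from the Kasumi-1 side. Among 5769 genes tested in both lines, 85 (1.47%) showed that arrangement and 95 (1.65%) lay below in both, PRDX5 among them. The Kasumi-1 side of the TXNIP arrangement was fixed by its choice, so the 1.47% is no measure of its rarity. On the NB4 side alone, 32.5% of 12941 tested genes had all JOA libraries above all controls.

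**Figure D4:**
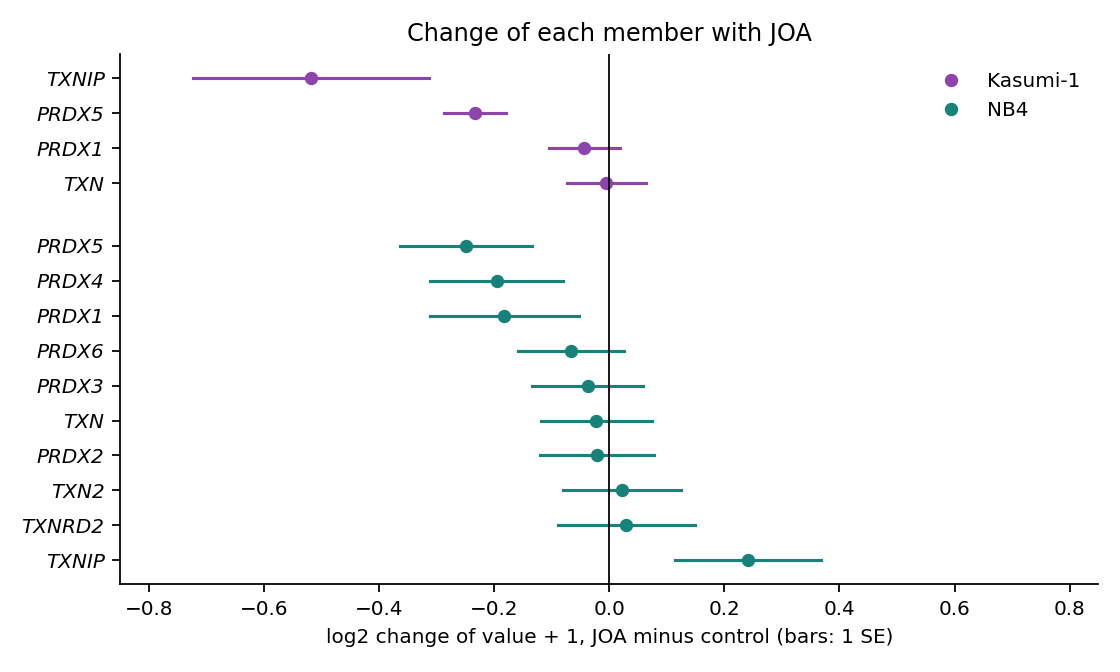
Log2 difference, JOA minus control, of each gene with its standard error (value + 1, FPKM in Kasumi-1 and TPM in NB4), Kasumi-1 above NB4. PRDX5 stands at -0.23 in Kasumi-1 and -0.25 in NB4, and TXNIP at -0.52 and 0.24.

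Among the NB4 genes, levels are TPM and thus per length. In the JOA libraries the order of means was PRDX1, TXN, PRDX3, PRDX5, PRDX6, PRDX2, TXNIP, PRDX4, TXN2 and TXNRD2, with overlapping ranges for PRDX1 and TXN, for PRDX5, PRDX6 and PRDX2, and for TXNIP and PRDX4. In controls PRDX1 averaged 356 TPM, TXN 313, PRDX3 241, PRDX5 228, PRDX6 199, PRDX2 189, PRDX4 153, TXNIP 114, TXN2 69.6 and TXNRD2 30.1 TPM. There the ranges overlapped for PRDX1 and TXN and for PRDX3 and PRDX5, and for no other neighbours. In Kasumi-1 the order in FPKM was TXN, PRDX1, PRDX5 and TXNIP in both groups, with no overlap between neighbours.

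In NB4 each gene could be split into its GENCODE transcripts, and 40 of them passed the filter on low values. Limma called 0 of these 40 and 0% of all 51643 tested transcripts. With no adjustment, 3 of the 40 had a p under 0.05, beside 6.72% of all. Of the 40, 10 had all JOA libraries below all controls, beside 13.2%, and 8 had them above, beside 24.5%. Among those below, PRDX1-205 and PRDX4-204 passed the filter only through the control libraries. Among those above, PRDX2-203 and TXNRD2-220 passed it only through the JOA libraries. TXNIP-204, a transcript with 8 exons and 391 codons, held 90.3% of the TXNIP TPM and was at 125 and 117 TPM with JOA and 114 and 91.2 TPM in controls (log2 difference 0.25, SE 0.14, adjusted p = 0.786). PRDX5-201, with 6 exons and 214 codons, held 82.7% of PRDX5 and was at 169 and 152 TPM with JOA and 178 and 195 TPM in controls (log2 difference -0.22, SE 0.11, adjusted p = 0.764). The shorter forms PRDX5-203 (5 exons) and PRDX5-202 (4 exons) also lay below their controls, narrowly so in JOA 1, at 21.3 and 12.9 TPM against 22.1 and 21.3 TPM, and at 18.4 and 11.1 TPM against 19.6 and 18.7 TPM.

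TXN, PRDX1, PRDX2, PRDX3 and PRDX4 were each carried by 1 transcript, with 92.5 to 99.1% of the gene's TPM. PRDX6 was split between PRDX6-201, with 73.4% of the TPM, and the processed transcript PRDX6-203, with 22.5%. PRDX6-201 was at 135 and 140.2 TPM with JOA and 147 and 149 TPM in controls, while PRDX6-203 was at 44.5 and 44.3 TPM with JOA and 44.0 and 42.1 TPM in controls. The coding transcript was thus the lower one in the JOA libraries, though neither passed the test (limma adjusted p = 0.866 for PRDX6-201 and 0.964 for PRDX6-203).

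TXN2 and TXNRD2 had no single dominant transcript. TXN2-201, with 166 codons, held 43.5 and 45.1% of the TXN2 TPM with JOA and 50.4 and 54.9% in controls, at 31.3 and 31.4 TPM against 34.7 and 38.6 TPM (log2 difference -0.22, SE 0.13, adjusted p = 0.788). TXN2-204, with 64 codons, held 29.9 and 26.4% with JOA and 21.4 and 25.8% in controls (log2 difference 0.27, SE 0.18, adjusted p = 0.802). The shares of both did not overlap between groups, for TXN2-204 only by 26.4 against 25.8%. How often such shares separate over all transcripts was not computed, and neither transcript was called. For TXNRD2, TXNRD2-204 held 34.2% of the TPM and TXNRD2-202 held 20.6%. Outside the rule for named transcripts, and chosen after its values were seen, PRDX1-205 was listed at 0 in both JOA libraries and at 7.98 and 16.3 TPM in controls (unadjusted p = 1.99e-04, adjusted p = 0.731), and a value of 0 in such a table can be a failed estimate. The others at an unadjusted p under 0.05 were PRDX4-204, at 0.920 and 0.982 TPM with JOA and 2.13 and 2.38 TPM in controls, and PRDX1-206, which was higher with JOA. PRDX1-205 and PRDX4-204 passed the filter only through the controls, where they were high, so their values are a description.

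**Figure D5:**
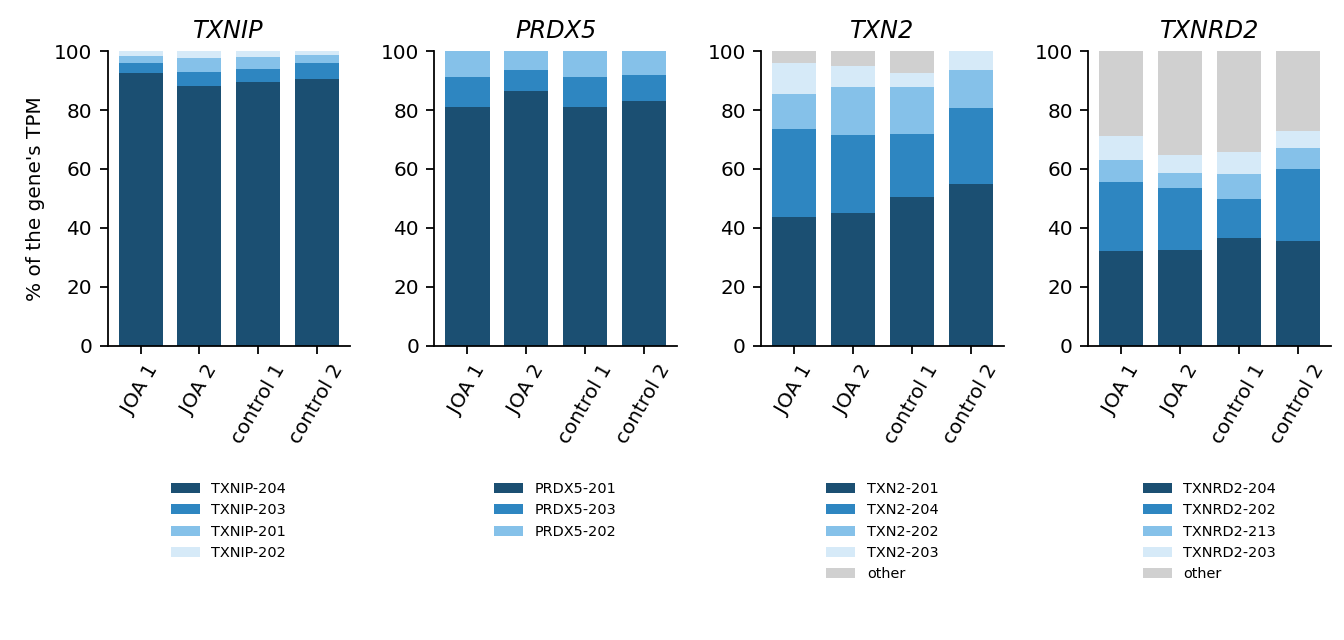
Share of each gene's NB4 TPM held by its transcripts (% of the gene's TPM), with the JOA libraries left of the controls. TXNIP-204 and PRDX5-201 hold most of their genes in every library, and TXN2-201 holds 43.5 and 45.1% with JOA and 50.4 and 54.9% in controls.

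Related genes were described from 3 lists of pathway members. Among 25 reductases, thioredoxin-like proteins and clients, 14 were tested in Kasumi-1 and 24 in NB4, and limma called 0 in either line (at an unadjusted p under 0.05, 0 of 14 in Kasumi-1, beside 16.4% of all tested genes, and 2 of 24 in NB4, beside 10.6%). TXNRD1, the cytosolic reductase that recharges TXN, averaged 41.4 ± 1.10 FPKM with JOA and 37.8 ± 2.15 FPKM in controls in Kasumi-1 (SD, n = 3 each). It averaged 120.3 ± 5.69 TPM with JOA and 107 ± 0.816 TPM in controls in NB4 (SD, n = 2 each, limma adjusted p = 0.592). Among the tested genes, the largest difference upward in Kasumi-1 was that of the methionine sulfoxide reductase MSRB1 (0.16) and the largest downward that of MSRB3 (-0.13). Among those tested in NB4 they were those of TXNRD3, at 3.22 ± 0.164 TPM with JOA and 2.08 ± 0.0907 TPM in controls (0.45, adjusted p = 0.510), and of TXNDC17, at 63.0 ± 2.27 TPM against 84.3 ± 8.63 TPM (-0.41, adjusted p = 0.305). The median log2 difference of the list was 0.090 in Kasumi-1 and 0.033 in NB4, beside 0.047 and 0.085 over all tested genes.

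Among 14 relatives of TXNIP, its transcription factors and glucose uptake genes, 8 were tested in Kasumi-1 and 12 in NB4, and limma called 0 in each, with 0 also at an unadjusted p under 0.05, beside 16.4% and 10.6% of all tested genes in Kasumi-1 and NB4. ARRDC3, another alpha-arrestin, had the largest difference downward among the tested genes in both lines. It averaged 6.77 ± 2.06 FPKM with JOA and 9.33 ± 4.41 FPKM in controls in Kasumi-1 (SD, n = 3 each), and 2.51 ± 0.00379 TPM with JOA and 3.87 ± 1.15 TPM in controls in NB4 (SD, n = 2 each, limma adjusted p = 0.546). The largest upward among the tested genes were NLRP3 in Kasumi-1 (0.17) and the glucose transporter gene SLC2A3 in NB4 (0.18). MLXIP, the factor that binds the paired boxes shown above, averaged 22.0 ± 1.64 FPKM with JOA and 19.5 ± 1.91 FPKM in controls in Kasumi-1 (SD, n = 3 each), and 21.3 ± 0.783 TPM with JOA and 19.6 ± 0.746 TPM in controls in NB4 (SD, n = 2 each).

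Among 19 glutathione, catalase and superoxide dismutase genes, 8 were tested in Kasumi-1 and 18 in NB4, and the unpaired limma fit called 0 in each (at an unadjusted p under 0.05, 5 of 8 in Kasumi-1, beside 16.4% of all tested genes, and 2 of 18 in NB4, beside 10.6%). With Kasumi-1 libraries paired by number, GCLM, the modifier subunit of the enzyme that starts glutathione synthesis, was called higher, and GPX4, GPX7 and CAT were called lower, which makes 4 of the 8, beside 8.14% of all tested genes, and 3 of the 8 lower, beside 2.06%. GPX4, which reduces lipid peroxides, averaged 112 ± 1.62 FPKM with JOA and 135 ± 9.87 FPKM in controls in Kasumi-1 (SD, n = 3 each), and 153 ± 10.5 TPM with JOA and 178 ± 14.1 TPM in controls in NB4 (SD, n = 2 each, limma adjusted p = 0.516). GCLM averaged 4.21 ± 0.418 FPKM with JOA and 3.13 ± 0.307 FPKM in Kasumi-1 controls (SD, n = 3 each). In NB4 the log2 difference was 0.076 for GCLM, 0.033 for GPX7 and -0.12 for CAT (limma adjusted p = 0.906, 0.955 and 0.696). The NB4 groups overlapped for GCLM and GPX7. Among the tested genes of NB4 the largest difference upward was that of the glutaredoxin gene GLRX, at 92.7 ± 6.69 TPM with JOA and 71.5 ± 2.13 TPM in controls (0.37, adjusted p = 0.318), and the largest downward that of GLRX2, at 23.9 ± 2.29 TPM against 29.5 ± 3.14 TPM (-0.29, adjusted p = 0.516). The list median was -0.058 in Kasumi-1 and -0.012 in NB4.

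The genes whose pattern was most like that of TXNIP were found by the root mean square difference, over the 10 libraries, of log2(value + 1) minus the control mean of the line, among 3939 genes with a mean of at least 5 in both tables. TNFSF13B, which encodes the cytokine BAFF, was closest at 0.196, followed by PAFAH1B3 at 0.208, MDK at 0.212, PA2G4 at 0.218 and RPF2 at 0.221, where the median over all compared genes was 0.401. TNFSF13B averaged 17.5 FPKM with JOA and 25.3 FPKM in controls in Kasumi-1, and 20.1 TPM with JOA and 16.7 TPM in controls in NB4. PAFAH1B3 averaged 9.95 FPKM with JOA and 13.2 FPKM in controls in Kasumi-1, and 30.5 TPM with JOA and 30.8 TPM in controls in NB4. The log2 differences in Kasumi-1 and NB4 were -0.52 and 0.24 for TXNIP and -0.50 and 0.24 for TNFSF13B. They were -0.37 and -0.015 for PAFAH1B3, -0.60 and 0.11 for MDK, -0.27 and 0.057 for PA2G4, and -0.24 and 0.067 for RPF2. A place among the closest genes thus needed neither a rise in NB4 nor a fall as large as that of TXNIP. The libraries of a line share their table and its scaling, and likeness is given as a description only.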

How the data were processed

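RNA was sequenced in Kasumi-1 (3 JOA, 3 control) and NB4 (2 JOA, 2 control) libraries, prepared with a stranded mRNA kit, as the labels' protocols state. Tools listed in the submitters' processing notes are HTSeq, Cufflinks, HISAT2 and Trimmomatic, on hg38, with neither version nor role. The authors deposited FPKM values for Kasumi-1, in 29053 rows labelled by RefSeq record, of which 10906 (37.5%) were matched to 10802 symbols with record versions ignored. The deposited NB4 columns are named FPKM but sum to 999679 to 999758, so they were taken as TPM, although the design had assumed FPKM. Of 121005 transcripts 93.9% matched GENCODE v29, and the unmatched held 3.04% of the TPM. Of 5179 Kasumi-1 rows under 0.3 FPKM, 84.5% were whole multiples of 1 read within 0.01 read, which gave the relative depths; NB4 depth is unknown.

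Values were tested with limma 3.58.1 (R 4.3.3, tables read with Python 3.11.15) on log2(value + 1) with a variance trend, each line on its own, for genes at 1 or more in at least 3 (Kasumi-1) or 2 (NB4) libraries. P-values were adjusted by Benjamini-Hochberg over all tested genes. A difference on this scale understates the change of low genes. Alternatives changed the pseudocount, filter, scaling, replicate block and libraries used. The fits were checked on simulated data. Same-numbered Kasumi-1 libraries deviated together (correlations 0.330, 0.500 and 0.424), so the numbers were taken as pairs in the replicate block, from the values and not from a label. The main fits, the fit over both lines and the SEs given with them are unpaired. In Kasumi-1 the paired SE was 0.089 for TXNIP, 0.042 for PRDX5, 0.037 for PRDX1 and 0.052 for TXN.

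The text names all 10 genes, the largest upward and downward difference per list and line, the 5 genes most like TXNIP and transcripts with 10% or more of a gene. TXNRD1, MLXIP, the NB4 values of GPX4, GPX7, GCLM and CAT, and the shorter PRDX5 forms were added after their values were seen. The genes and lists were chosen with earlier results of these data known.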

Additional observations from a re-analysis of the deposited data

Results flagged for a closer look

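The JOA difference of TXNIP was flagged for differing between the lines. Every JOA library lay below every control in Kasumi-1, the side for which TXNIP was chosen, and above every control in NB4. Among 5769 genes tested in both lines, 85 (1.47%) showed that arrangement, but its Kasumi-1 side was fixed by the choice of TXNIP. On the NB4 side alone, 32.5% of 12941 tested genes had all JOA libraries above all controls. The Kasumi-1 difference minus the NB4 difference was -0.76 on the log2(value + 1) scale. This difference was part of the fit over both lines and was not called, but no p-value is given for it, since TXNIP was chosen from the Kasumi-1 side. It was -0.92 to -0.55 with each library left out in turn. The groups of 2 or 3 libraries are too small to look for single outlying libraries.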

How the results depend on the processing

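The number of called genes of the set was 0 in each line, in the difference between lines and among NB4 transcripts under all alternatives run, leave-one-out fits included, except with the replicate block in Kasumi-1, which put 2 of 4 (TXNIP and PRDX5) past the threshold, beside 8.14% of all tested genes. Kasumi-1 chose the set, so this count tests nothing. In Kasumi-1 the block is a pairing by number; in NB4 the same-numbered libraries correlated at 0.0652 and were not taken as pairs, and the block called 0 of 10 genes there.

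Signs turned mostly for small differences, TXNRD2-202 (0.27 with all libraries) being an exception. With median-ratio scaling they were -0.076 for TXN2, -0.067 for TXNRD2 and -0.048 for PRDX6-203. With quantile normalisation they were 0.069 for TXN and 0.033 for PRDX1 in Kasumi-1, and -0.034 for TXN2 and -0.070 for TXNRD2 in NB4. With 1 library left out they ranged from -0.051 to 0.047 for TXN in Kasumi-1, and in NB4 from -0.083 to 0.037 for TXN, -0.090 to 0.047 for PRDX2 and -0.079 to 0.0040 for PRDX3. The differences between lines ranged from -0.043 to 0.077 for TXN, -0.038 to 0.32 for PRDX1 and -0.11 to 0.14 for PRDX5. Transcripts ranged from -0.18 to 0.16 for TXN2-202, -0.13 to 0.67 for TXNRD2-202, -0.32 to 0.029 for PRDX1-202, -0.11 to 0.021 for PRDX3-201, -0.078 to 0.038 for TXN-202 and -0.10 to 0.040 for PRDX2-201. The cause was not tested. Leaving out 1 NB4 library leaves a group of 1, whose spread is assumed to be like that of the other group. NB4 has 2 libraries per group and an unknown depth, which limits the size of difference that could be called.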
